A study of Arabidopsis thaliana with 4 samples.

Results

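Class III peroxidases are secreted haem enzymes of plants that use hydrogen peroxide to oxidise phenolic compounds and other substrates in the cell wall and the vacuole. In the wall they join monolignols into lignin and cross-link extensins and phenolic side chains, which stiffens it, and they can also produce reactive oxygen species that loosen it. Members are known from root hairs, the endodermis, lignifying vessels and responses to wounding, cold and pathogens. In the catalytic centre a distal histidine and a distal arginine act on the peroxide, and another histidine holds the haem iron.

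The family was taken as the genes with an exon entry described as a peroxidase superfamily protein, which gave 63 of the 25819 genes in the main table. Of these, 61 were among the 73 loci that carry a class III number (PRX1 to PRX73) in the published numbering. The other two were DOX1 (AT3G01420), an alpha-dioxygenase that oxidises fatty acids, and ASK2 (AT5G42190), a SKP1-like subunit of ubiquitin ligases. ASK2 was taken in because 1 of its 2 distinct exon entries carries the description of PRX64, which overlaps it on the other strand. A further 11 numbered loci stood in the table under other descriptions (PRX16, PRX29, PRX33, PRX34, PRX38, PRX45, PRX48, PRX53, PRX60, PRX61 and PRX73), and PRX41 was not analysed here. The 11 are given as such where they are named.

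RNA was sequenced from entire plantlets of Arabidopsis thaliana in the Columbia-0 ecotype, 21 days old, grown on agar with sucrose under continuous light. The 4 groups were larp1 mutants at 38 °C, larp1 mutants at 20 °C, wild type (WT) at 38 °C and WT at 20 °C, each kept for 15 min in liquid medium of that temperature. LARP1 belongs to the La-related proteins, which bind RNA. The larp1 allele is not given in the sources used here. Each group was 1 pool of 6 to 8 plantlets and 1 library, so replicate error is unknown for every difference below, p-values are left out, and each comparison sets 1 library against another. The aim stated by the submitters was to compare the mRNA populations of these plants.

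The smallest step between values, which is what 1 read is worth, was 0.0223 RPM (the deposited unit, reads scaled to the library's total) in larp1 at 38 °C, 0.0134 in larp1 at 20 °C, 0.0235 in WT at 38 °C and 0.0217 in WT at 20 °C, so larp1 at 20 °C was sequenced deepest. LARP1A (AT5G21160) was at 9.29 and 9.21 RPM in larp1 at 38 °C and 20 °C, against 33.1 and 37.1 RPM in WT. All 4 heat shock genes checked, among them HSP101, were called higher at 38 °C in both genotypes. At 20 °C they summed to 37.2 RPM in larp1 and 118 RPM in WT, with 2 called lower and 1 higher in larp1. At 38 °C none was called between genotypes. The 5 root markers summed to 536 RPM in larp1 at 38 °C, 1270 in larp1 at 20 °C, 460 in WT at 38 °C and 994 in WT at 20 °C, so root transcripts were present in every library. The 5 root hair markers summed to 10.3, 15.3, 9.36 and 17.59 RPM in the same order, and the 5 shoot markers to 20955, 36812, 30532 and 41441 RPM. Flower and seed markers summed to at most 0.28 RPM in any library. In such whole-plant RNA, fewer cells of a type and less RNA per cell cannot be told apart.

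Genes entered a comparison if either of its libraries, or for 4 libraries 1 of each genotype, held 50 reads or more of them. A gene was called higher or lower where the levels differed at least 2-fold and the 95% counting interval of the ratio left out no change. Log2 folds were taken after adding 1 read's worth of RPM to each value, and brackets hold the counting interval. Of the 61 class III members, 11 had under 50 reads in every library and entered no comparison: PRX5, PRX6, PRX13, PRX14, PRX18, PRX28, PRX36, PRX46, PRX58, PRX65 and PRX68.

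The sequence of the catalytic centre was read from the RefSeq genome (TAIR10.1) to check the label. A script translated each coding sequence and found the distal arginine and, 4 residues on, the distal histidine followed by aspartate and cysteine in 60 of the 61 class III members. PRX26 lacked these letters, as did DOX1 and ASK2. Among the 60 members, 57 different stretches of 33 coding bases were found around the motif. Coding lengths of the class III members were between 933 and 1119 bases with a median of 990, and 40 of the 61 had 4 exons. The 6 windows below belong to the most abundant member (PRX42), the member called higher in larp1 at both temperatures (PRX4), the 2 lowest after heat in WT (PRX15 and PRX31) and the one that was highest after heat with its neighbour (PRX51 and PRX50). Capitals mark the arginine codon and the histidine codon, and every window lies within 1 coding exon. They are at chr4:11648088-11648120 on the minus strand (PRX42), chr1:4975406-4975438 on the minus strand (PRX4), chr2:7893347-7893379 on the minus strand (PRX15), chr3:10518244-10518276 on the plus strand (PRX31), chr4:17634966-17634998 on the plus strand (PRX51) and chr4:17631884-17631916 on the plus strand (PRX50).
PRX42: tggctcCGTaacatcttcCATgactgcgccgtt
PRX4: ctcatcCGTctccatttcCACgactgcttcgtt
PRX15: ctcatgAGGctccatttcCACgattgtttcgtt
PRX31: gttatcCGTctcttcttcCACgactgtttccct
PRX51: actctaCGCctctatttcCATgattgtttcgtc
PRX50: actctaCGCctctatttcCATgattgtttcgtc
The windows of PRX50 and PRX51 are the same, and so are those of PRX14 and PRX15 and those of PRX1 and PRX2.

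Levels within the family spanned from no read to 1446.97 RPM, and PRX42 (AT4G21960, also named PRXR1) outweighed the other class III members together. It was at 873.86 RPM in larp1 at 38 °C, 1446.97 in larp1 at 20 °C, 967.58 in WT at 38 °C and 1228.56 in WT at 20 °C. In the values as deposited, both 38 °C libraries were below both 20 °C libraries. With TMM and median-of-ratios scaling, described further on, the log2 fold with heat turned to 0.16 and 0.19 in WT. It stayed below 0 in larp1 (-0.33 and -0.29). PRX42 made up 55.2%, 54.5%, 57.7% and 51.1% of the summed RPM of the 61 class III members in the same libraries. The sum was 1583 RPM in larp1 at 38 °C and 2655 RPM in larp1 at 20 °C, against 1676 RPM in WT at 38 °C and 2405 RPM in WT at 20 °C.

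Per kilobase of coding length, PRX42 averaged 1137 RPM over the 4 libraries and PRX32, the next class III member, 148 RPM. PRX31, PRX21, PRX23, PRX69, PRX12, PRX22 and PRX30 followed between 60.6 and 40.2 RPM per coding kilobase. PRX32 (AT3G32980) was at 117.78 and 192.99 RPM in larp1 at 38 °C and 20 °C, and at 126.69 and 188.06 RPM in WT at 38 °C and 20 °C. PRX21, linked to defence and lignin, was at 51.45 and 61.87 RPM in larp1 and at 52.30 and 58.31 RPM in WT. Its 4 libraries lay close together. Of the loci under other descriptions, PRX34, an apoplastic enzyme of the oxidative burst, was the most abundant, with 88.31 and 145.05 RPM in larp1 and 94.29 and 130.01 RPM in WT at 38 °C and 20 °C.

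**Figure D1:**
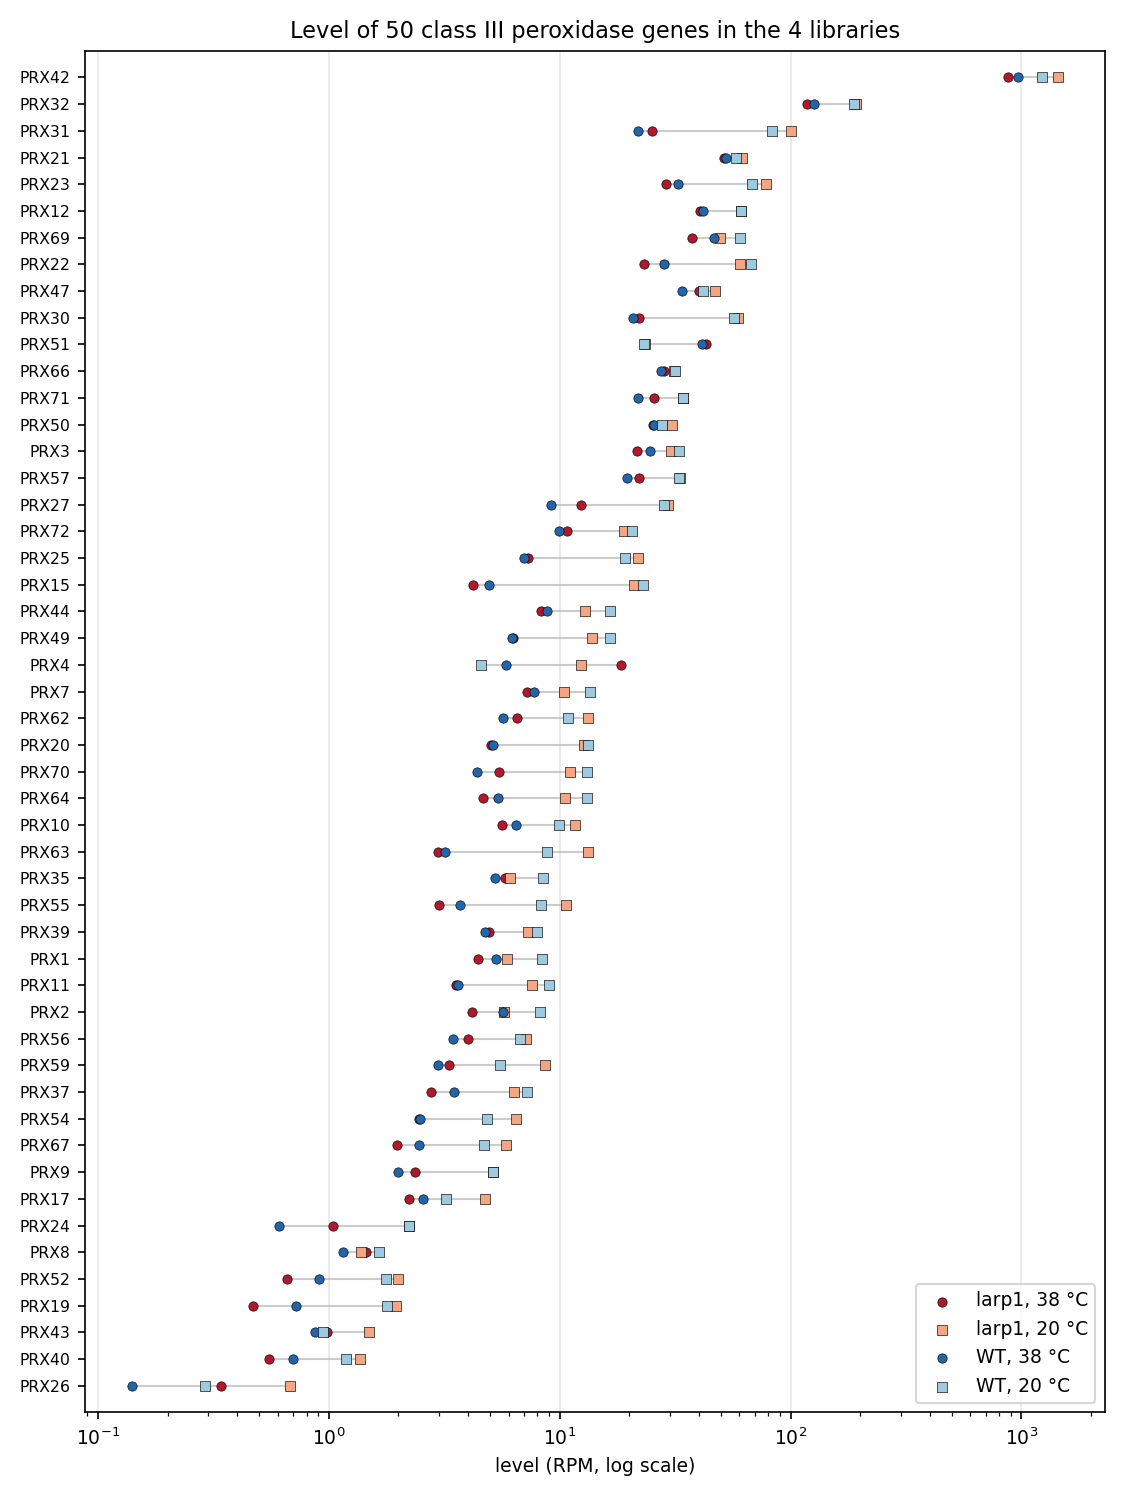
Level in RPM (log axis) of the 50 class III members with at least 50 reads in a library, ordered by mean, with 1 point for each of the 4 libraries (circles 38 °C, squares 20 °C, red and orange larp1, dark and light blue WT) and a grey line over their range. PRX42 stands alone at the top, the circles lie left of the squares for most genes, and for PRX51 and PRX4 they lie to the right within each genotype.

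At the lower end, the 11 members with few reads reached at most 0.58 RPM (PRX58 in WT at 38 °C). PRX36, an enzyme of seed coat mucilage, had no read in either 38 °C library, which allows up to 0.0668 RPM in larp1 and 0.0704 RPM in WT, and was at 0.12 RPM in larp1 and 0.02 RPM in WT at 20 °C. PRX13 and PRX14 had at most 0.02 RPM in any library. PRX14 is the neighbour of PRX15, with 92% identical coding bases, and PRX15 was at up to 22.89 RPM.

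After 15 min at 38 °C, no member was called higher and many were called lower in the values as deposited. In larp1, 26 of the 52 members compared (50%) were called lower, against 19.8% of all 20477 genes compared, and none higher, against 4.19% of all genes. In WT, 19 of the 50 members compared (38%) were called lower, against 25.0% of all 19387 genes, and none higher, against 4.26%. The median log2 fold of the members was -0.98 in larp1 and -0.89 in WT, beside -0.43 and -0.51 over all genes. The members reached from -2.30 to 0.87 in larp1 and from -2.21 to 0.83 in WT. DOX1 and ASK2 were not called in either, so all calls fell on class III loci. Of the 5 root markers, 3 were called lower and 1 higher in each genotype, with medians of -1.25 in larp1 and -1.10 in WT. Their part in the result was not tested.

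The summed level of the class III members at 38 °C was 0.596 times that at 20 °C in larp1 and 0.697 times in WT. Without PRX42 it was 0.587 times in larp1 and 0.602 times in WT. With TMM and median-of-ratios scaling, described next, the full sum was at 0.783 and 0.806 times in larp1 and at 0.987 and 1.01 times in WT, so in WT its direction depended on the scaling. Of the 48 class III members compared in both genotypes, 18 were called lower in both, 8 in larp1 only and 1, PRX72, in WT only. Over all genes, 3123 of the 19350 compared in both were called lower in both. In each genotype by itself, 4053 of 20477 genes were called lower in larp1 and 4839 of 19387 in WT. Genes called in 1 genotype only were not counted over all genes. The 8 and the 1 thus have no such share beside them and are not read as a difference between genotypes. In 45 of the 48 the log2 fold was below 0 in both. The 8 were PRX10, PRX17, PRX40, PRX52, PRX54, PRX59, PRX62 and PRX67. Their difference from WT was not past 2-fold for any of them, as given further on. Across the 48 genes, which are no replicates, Pearson's r between the log2 folds of larp1 and WT was 0.831, beside 0.926 over the 19350 genes compared in both.

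The deposited values are scaled to each library's total. With TMM scaling, which sets the typical gene to no change, the median of all genes moved up by 0.39 in larp1 and 0.50 in WT on the log2 scale. With this scaling 10 members were called lower and 1 higher in larp1, and 5 lower and 1 higher in WT; with median-of-ratios scaling 9 lower and 2 higher in larp1, and 5 lower and 1 higher in WT. TMM put the share of all genes called lower at 10% in larp1 and 11.3% in WT, median-of-ratios scaling at 9.36% in larp1 and 10.8% in WT. In WT, 5 of 50 members is no higher a share than that of all genes with either scaling, whereas 10 or 9 of 52 in larp1 is above it. The log2 fold stayed below 0 in 42 of 50 class III members in larp1 and 38 of 48 in WT with TMM, and in 39 and 36 with median-of-ratios scaling. Set against the median of all genes, a position that rescaling leaves as it is, 39 of 50 class III members in larp1 and 37 of 48 in WT were below it. Members called lower with every scaling in both genotypes were PRX15 and PRX31.

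PRX15 (AT2G18150) was the lowest member in both genotypes. It was at 4.23 and 20.96 RPM in larp1 at 38 °C and 20 °C, and at 4.94 and 22.89 RPM in WT. The 38 °C libraries held 0.203 times the 20 °C level in larp1 (log2 fold -2.30 [-2.53, -2.09]) and 0.217 times in WT (-2.21 [-2.43, -1.99]). All 4 exon entries were lower in both genotypes, between -2.99 and -2.10 in larp1 and between -2.34 and -1.64 in WT.

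PRX31 (AT3G28200), the most abundant of the strongly lowered members, consists of 1 exon. Heated and unheated larp1 had 25.04 and 100.85 RPM of it, and heated and unheated WT 21.78 and 82.88 RPM. Its log2 fold was -2.01 [-2.10, -1.92] in larp1 and -1.93 [-2.03, -1.82] in WT. The other member of 1 exon that was compared, PRX63 (AT5G40150), was at 2.98 and 13.25 RPM in larp1 and at 3.19 and 8.77 RPM in WT at 38 °C and 20 °C, with log2 folds of -2.14 and -1.45. A gene on the other strand, AT5G40153, overlaps PRX63 and holds 13.1% of its 100-base stretches, and reads of the overlap cannot be told apart without strand.

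Several abundant members were called lower in both genotypes. PRX30 was at 21.97 and 59.37 RPM in larp1 and at 20.68 and 57.12 RPM in WT at 38 °C and 20 °C, log2 folds of -1.43 and -1.46. PRX22 was at 23.15 and 60.23 RPM in larp1 and at 28.19 and 67.23 RPM in WT, and its neighbour PRX23 at 28.80 and 78.66 RPM in larp1 and at 32.44 and 67.74 RPM in WT. Both were called lower in both genotypes, PRX22 at -1.38 in larp1 and -1.25 in WT, PRX23 at -1.45 and -1.06. PRX20 (-1.33 in larp1 and -1.35 in WT), PRX11 (-1.09 and -1.30), PRX49 (-1.14 and -1.41) and PRX9 (-1.11 and -1.36) were called in both too.

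PRX27, PRX70 and PRX24 were among the 5 lowest in WT and were nearer to the threshold in larp1. PRX27 was at 12.31 and 29.45 RPM in larp1 and at 9.13 and 28.18 RPM in WT, log2 folds of -1.26 and -1.62. PRX70 was at 5.45 and 11.09 RPM in larp1 and at 4.38 and 13.16 RPM in WT, log2 folds of -1.02 and -1.58. PRX24 rested on few reads, with 1.04 and 2.23 RPM in larp1 and 0.61 and 2.22 RPM in WT, log2 folds of -1.08 [-1.59, -0.62] and -1.82 [-2.54, -1.23].

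PRX19, PRX55, PRX52 and PRX67 were among the 10 lowest in larp1. PRX19 was at 0.47 and 1.96 RPM in larp1 and at 0.72 and 1.78 RPM in WT at 38 °C and 20 °C, log2 folds of -2.00 [-2.80, -1.40] and -1.28 [-1.94, -0.68]. PRX55 was at 3.0 and 10.64 RPM in larp1 and at 3.69 and 8.27 RPM in WT, log2 folds of -1.82 and -1.16. For PRX55, 1 of its 3 exon entries carries the description of an overlapping gene on the other strand, and without it the log2 folds were -1.95 and -1.17. PRX67 was at 1.98 and 5.85 RPM in larp1 and at 2.46 and 4.69 RPM in WT, log2 folds of -1.55 and -0.92.

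**Figure D2:**
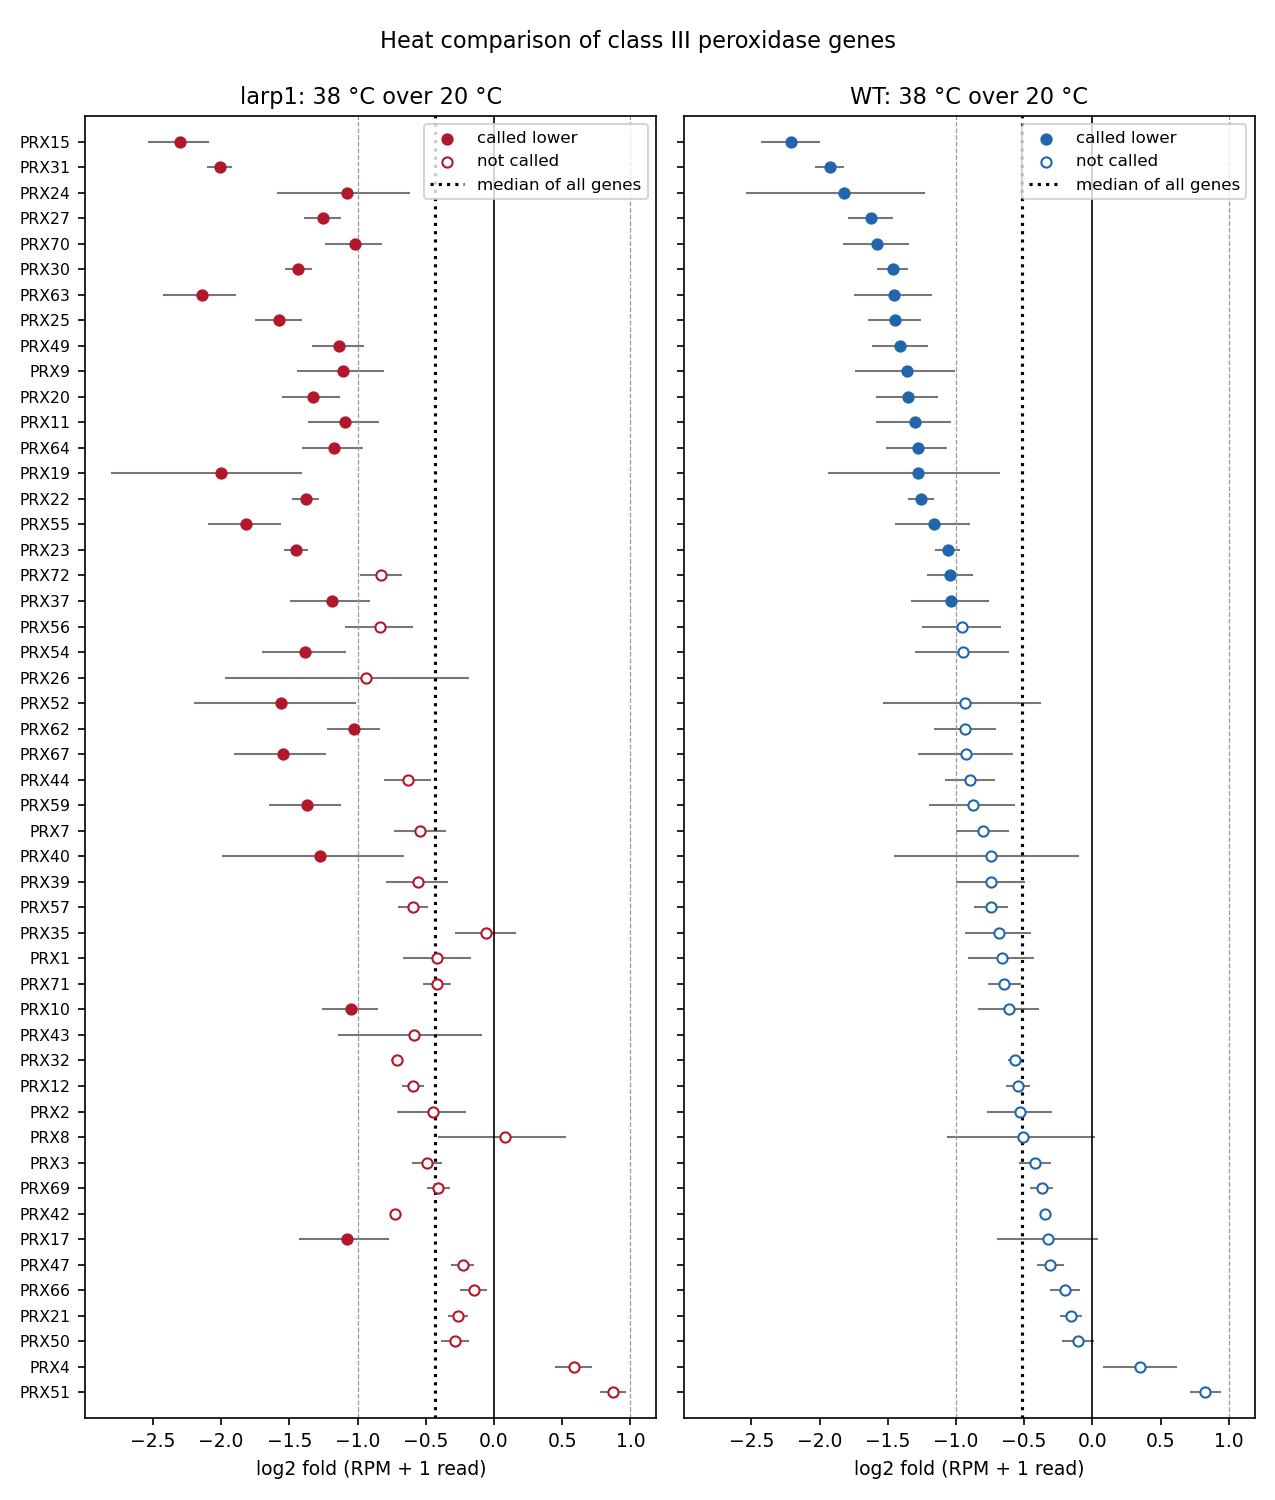
Log2 fold of 38 °C over 20 °C for the 50 class III members compared, larp1 on the left and WT on the right, ordered by the WT value, with 95% counting intervals, filled points for members called lower, dashed lines at 2-fold and a dotted line at the median of all genes. Nearly all points lie left of 0, from PRX15 (-2.30 in larp1 and -2.21 in WT) to PRX51 (0.87 and 0.83), and PRX26 and PRX43 have no WT value.

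Besides PRX31 and PRX63, which have 1 exon each, most calls could be followed over separate exons. Of the 24 members called lower in larp1 that had at least 2 exon entries of 20 or more reads, every such entry was below 0 in 24, over 84 entries. In WT this held for 16 of 16 such members, over 60 entries. The calls were made on the sums of these same entries, so entries below 0 were largely fixed in advance. The counts describe how the falls spread over exons and are no separate support for the calls.

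A pair of gene properties moved with the share called lower in the whole table, and the family was set beside genes alike in them. The share called lower fell with the number of exon entries, in larp1 at 42.1% of all genes with 1 entry and 9.69% of those with 5 or more, and in WT at 49.2% and 14.8%. Among genes with 4 entries, to which most members belong, 18 of 31 class III members were called lower in larp1, against 19.6% of all such genes, and 14 of 29 in WT, against 24.4%. With 3 entries it was 6 of 11 in larp1, against 22.9%, and 3 of 11 in WT, against 28.9%. Both members with 1 entry were called lower in both genotypes. None of the 3 with 2 entries was called in either, against 28.9% of all such genes called lower in larp1 and 33.9% in WT. None of the 3 with 5 or more entries was called in either. The share also fell with level, and among genes averaging 2 to 10 RPM, 14 of 20 class III members were called lower in larp1, against 23.5% of all such genes, and 8 of 20 in WT, against 30.7%. At 10 to 50 RPM it was 6 of 17 in larp1, against 12.8%, and 7 of 17 in WT, against 18.6%. Above 50 RPM it was 2 of 6 in each, against 9.28% in larp1 and 10.6% in WT. Under 2 RPM it was 4 of 7 in larp1, against 38.4%, and 2 of 5 in WT, against 49.4%. In WT the members were thus not above genes alike in every group. These groups are given for the values as deposited only. With TMM or median-of-ratios scaling, 5 of all 48 class III members compared were called lower in WT, and 10 or 9 of 50 in larp1. The counts describe 1 library a group and carry no test.

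The 11 loci under other descriptions were not used to form the family and give the same measure on other genes. They come from the same 4 libraries and are no separate support. PRX38 and PRX53 among them are 93.8% and 86.1% identical in coding bases to their neighbours PRX37 and PRX54, which are members. Of the 10 compared, 5 were called lower and none higher in either genotype, against 19.8% of all genes called lower in larp1 and 25.0% in WT. The median log2 fold was -1.02 in larp1 and -0.999 in WT, beside -0.43 and -0.51 over all genes. With TMM and with median-of-ratios scaling 4 stayed called in each genotype. The shares of all genes were then 10% and 9.36% in larp1, and 11.3% and 10.8% in WT. The 5 were PRX16, PRX38, PRX45, PRX53 and PRX61. PRX45 was the most abundant of these, at 25.27 and 63.49 RPM in larp1 and at 22.91 and 51.89 RPM in WT at 38 °C and 20 °C. Over all 72 numbered loci with values, 31 of 60 were called lower in larp1 and 24 of 58 in WT, against the same 19.8% and 25.0%.

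In the authors' deposited table of genes changed by heat, 18 of the 63 members were listed among the 3005 genes down in both genotypes. The authors' deposited table listed 6 more among 700 genes down in larp1 only (PRX10, PRX17, PRX52, PRX54, PRX59 and PRX62) and 2 among 1740 genes down in WT only (PRX24 and PRX72). No member stood in the lists of genes up, which hold 680 genes in both genotypes, 127 in WT only and 152 in larp1 only. The main table holds 25819 genes. Beside that, the members' share was larger in the lists down in both and down in larp1 only. It was smaller in the list down in WT only. The lists rest on the same 4 libraries and are no separate support. For PRX15 the authors' deposited table gives a fold of 38 °C over 20 °C of 0.202 in larp1 and 0.216 in WT. Other members differed from the calls made here. PRX67 was listed as down in both (0.467 in WT) but was not called in WT here. PRX24 was listed for WT only (0.519 in larp1) but was called in both here. PRX40, called in larp1 here, stood in none of the lists.

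PRX51 (AT4G37530) had the highest log2 fold of all members in both genotypes and was not called. Heated and unheated larp1 had 43.07 and 23.51 RPM, and heated and unheated WT 41.33 and 23.27 RPM. Both 38 °C libraries were above both 20 °C libraries. The fold was 1.83 in larp1 (log2 0.87 [0.78, 0.97]) and 1.78 in WT (0.83 [0.72, 0.94]), short of 2-fold, and past it with TMM and with median-of-ratios scaling. All 6 of its exon entries were above 0 in both genotypes. The adjacent PRX50 (AT4G37520), with 92.4% identical coding bases, was at 25.24 and 30.79 RPM in larp1 and at 25.67 and 27.64 RPM in WT, log2 folds of -0.29 [-0.39, -0.18] and -0.11 [-0.23, 0.01]. With TMM the PRX50 values turned to 0.11 in larp1 and 0.40 in WT, and with median-of-ratios scaling to 0.15 and 0.42, so the opposite signs of the pair depended on the scaling, while PRX51 stayed above PRX50. The longest run of bases that the pair shares is 67, shorter than the reads of 100 bases, so their reads differ in at least 1 base. The 99 coding bases that end with the window of the catalytic centre show how near they are, at chr4:17634900-17634998 (PRX51) and chr4:17631818-17631916 (PRX50), both on the plus strand, with the 3 bases that differ in capitals.
PRX51: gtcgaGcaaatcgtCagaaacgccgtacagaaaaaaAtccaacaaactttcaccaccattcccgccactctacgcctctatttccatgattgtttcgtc
PRX50: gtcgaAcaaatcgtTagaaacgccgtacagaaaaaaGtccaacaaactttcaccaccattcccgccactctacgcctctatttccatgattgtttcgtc

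Neighbouring class III genes form 11 runs of 2 or 3 in the genome, 24 genes in all, and their heat values were alike in some runs and not in others. PRX22 and PRX23 (90.6% identical) and PRX37 and PRX38 (93.8%) had all their values below -1. In the run PRX69, PRX70 and PRX71, only PRX70 was called lower in either genotype. PRX69 was at 37.27 and 49.43 RPM in larp1 and at 46.83 and 60.52 RPM in WT at 38 °C and 20 °C, log2 folds of -0.41 and -0.37. PRX71, which takes part in lignin formation, was at 25.64 and 34.28 RPM in larp1 and at 21.77 and 34.04 RPM in WT, log2 folds of -0.42 and -0.64. PRX1 and PRX2 have the same coding sequence, and all 100-base stretches of the PRX2 mRNA occur in that of PRX1, so the values of this pair cannot be told apart.

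**Figure D3:**
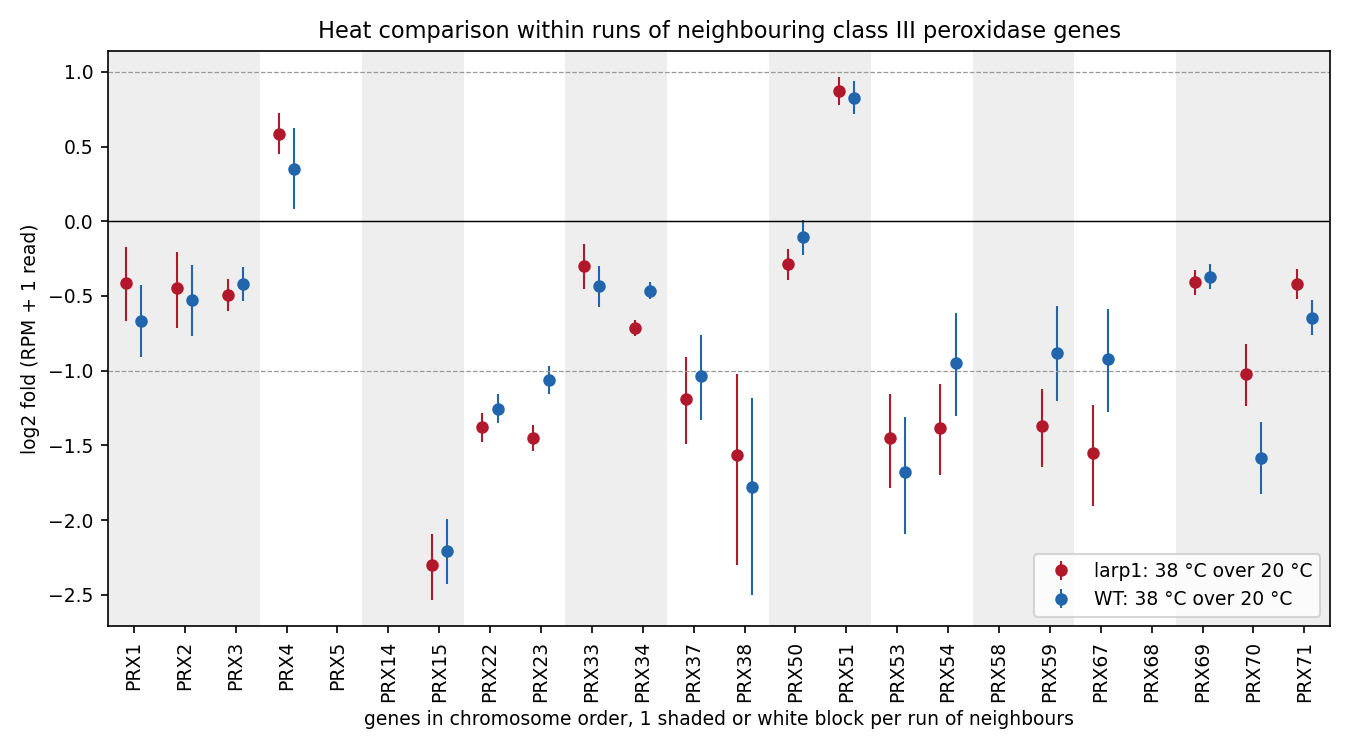
Log2 fold of 38 °C over 20 °C, larp1 in red and WT in blue, with 95% counting intervals, for 24 genes in 11 runs of neighbours (alternating bands), of which PRX33, PRX34, PRX38 and PRX53 are outside the 63 genes; a gene with under 50 reads has no point. PRX51 lies at 0.87 and 0.83 beside PRX50 at -0.29 and -0.11 (above 0 with TMM and median-of-ratios scaling), whereas PRX22 and PRX23 both lie below -1.

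By known role, the 9 peroxidases of lignin and the Casparian strip split. PRX25, PRX52, PRX64 and PRX17 were called lower in larp1, and PRX25, PRX64 and PRX72 in WT. This was 4 of 9 in larp1, against 19.8% of all genes, and 3 of 9 in WT, against 25.0%. Counts in lists this small are not read as results about the lists. PRX25, which acts in stem lignin, was at 7.30 and 21.81 RPM in larp1 and at 7.01 and 19.16 RPM in WT at 38 °C and 20 °C, log2 folds of -1.58 and -1.45. PRX64, which deposits the lignin of the Casparian strip in the endodermis, was at 4.67 and 10.57 RPM in larp1 and at 5.40 and 13.16 RPM in WT, log2 folds of -1.17 and -1.28. PRX72, which acts in lignin of vessels and fibres, was at 10.70 and 19 RPM in larp1 and at 9.95 and 20.51 RPM in WT, log2 folds of -0.83 and -1.04. PRX66, of vessel walls, was at 28.20 and 31.26 RPM in larp1 and at 27.46 and 31.55 RPM in WT, with all 4 libraries close together. None of the 3 calls in WT held with TMM or median-of-ratios scaling, and of those in larp1 PRX25 and PRX52 did.

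Of the 8 peroxidases of root hairs, PRX62 alone was called lower, in larp1, with 6.5 RPM in heated and 13.25 RPM in unheated plantlets (log2 fold -1.02 [-1.22, -0.84]), and was at 5.66 and 10.81 RPM in WT (-0.93 [-1.16, -0.71]). This was 1 of 8 in larp1 and none in WT, against 19.8% and 25.0% of all genes. PRX1 of this list cannot be told apart from PRX2 of the lignin list. The median of the list was -0.43 in larp1 and -0.74 in WT, beside -0.43 and -0.51 over all genes, and the larp1 median was at 0.00 with median-of-ratios scaling. The root hair markers COBL9, RSL4 and EXPA18 were called lower in WT, 3 of 4 compared, and COBL9 and RHD6 in larp1, 2 of 5. Their part in the result was not tested.

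Of the peroxidases known as targets of the root meristem regulator UPB1, PRX57 was at 21.97 and 33.10 RPM in larp1 and at 19.65 and 32.84 RPM in WT, and PRX40 alone was called lower, in larp1, at 0.55 and 1.37 RPM. PRX40 and PRX9 cross-link extensins in the anther tapetum. PRX9 was at 2.36 and 5.12 RPM in larp1 and at 1.99 and 5.14 RPM in WT, in plantlets in which flower markers were near 0. Among the members linked to cold, wounding and pathogens, PRX37 was called lower in both genotypes (-1.19 in larp1 and -1.04 in WT) and so was PRX53 (-1.45 and -1.68), a locus under another description. With PRX62 this was 3 of 5 in larp1, and it was 2 of 5 in WT, against 19.8% and 25.0% of all genes. PRX3 (also RCI3), induced by cold, was at 21.51 and 30.27 RPM in larp1 and at 24.50 and 32.80 RPM in WT, log2 folds of -0.49 and -0.42, and was not called.

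Other genes of lignin formation were set beside the family. Laccases, copper enzymes that also oxidise monolignols, were called lower in 11 of 14 compared in larp1 and 11 of 12 in WT, and none higher, with medians of -1.59 and -1.46. The shares of all genes called lower were 19.8% in larp1 and 25.0% in WT. LAC3 was at 1.94 and 17.22 RPM in larp1 and at 2.77 and 17.91 RPM in WT, log2 folds of -3.13 and -2.68. With TMM scaling 9 laccases were called lower in larp1 and 6 in WT, against 10% and 11.3% of all genes. With median-of-ratios scaling it was 9 and 5, against 9.36% and 10.8%. Of the 16 genes of monolignol synthesis, 4 were called lower in larp1 and 9 in WT, among them PAL1 (-1.27 and -1.70) and PAL2 (-1.51 and -1.46), which start the pathway. The larp1 count is near the 19.8% of all genes, and the WT count is above the 25.0%. With TMM or median-of-ratios scaling 2 of the 16 were called lower in each genotype, near the shares of all genes with these scalings.

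CAD5, which makes the monolignols in the last step, was the only gene of that list called higher. Heated and unheated larp1 had 207.32 and 59.20 RPM, and heated and unheated WT 159.57 and 75.05 RPM, folds of 3.50 and 2.13. NADPH oxidases make the superoxide from which the peroxide arises. RBOHC was called lower in both genotypes (log2 fold -1.07 in larp1 and -1.60 in WT) and RBOHF in WT (0.467 times the 20 °C level), and RBOHB was called higher in both, 2.47-fold in larp1 and 2.01-fold in WT. Called lower were thus 1 of 8 compared in larp1 and 2 of 7 in WT, near the 19.8% and 25.0% of all genes. With TMM or median-of-ratios scaling no NADPH oxidase was called lower in larp1 and 1 in WT, where the RBOHF call was lost. RBOHD, the most abundant of them, was at 283.23 and 469.24 RPM in larp1 and at 246.64 and 333.88 RPM in WT and was not called. None of the 7 Casparian strip partners compared was called in either genotype, with medians of -0.52 in larp1 and -0.77 in WT.

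**Figure D4:**
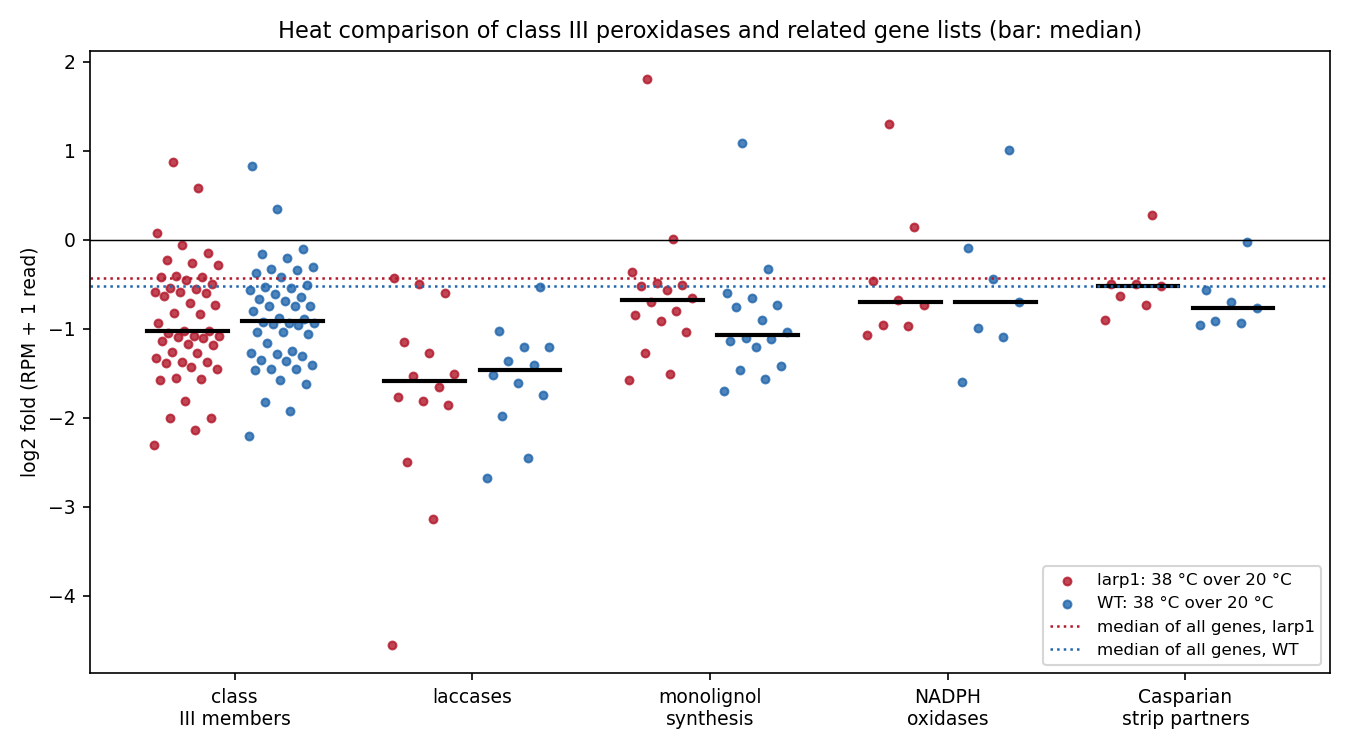
Log2 fold of 38 °C over 20 °C for each gene compared (1 point a gene, larp1 in red, WT in blue) of the class III members and 4 related lists; bars are medians and dotted lines the medians of all genes. The laccases have the lowest medians (-1.59 in larp1 and -1.46 in WT), and CAD5 (3.50-fold and 2.13-fold) and RBOHB (2.47-fold and 2.01-fold) stand above the rest of their lists; the lowest point, LAC16 in larp1, rests on 1 read at 38 °C.

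Between genotypes few members were called. At 20 °C, 2 of the 52 members compared were called higher in larp1 than in WT, against 3.49% of all 20300 genes, and none lower, against 0.493%. At 38 °C, 1 of 46 was called higher, against 3.92% of all 18532 genes, and none lower, against 0.2%. The medians were -0.02 at 38 °C and 0.03 at 20 °C, and the 20 °C median turned to -0.02 with TMM and -0.04 with median-of-ratios scaling, beside 0.14 and 0.04 over all genes. The summed level of the class III members in larp1 was 0.944 times that in WT at 38 °C and 1.104 times at 20 °C. Without PRX42 it was 1.00 times at 38 °C and 1.03 times at 20 °C. The full sum was at 0.850 and 1.07 times with TMM scaling, and at 0.843 and 1.05 times with median-of-ratios scaling.

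PRX4 (AT1G14540), a peroxidase of stem lignin, was called higher in larp1 at both temperatures. It was at 18.52 RPM in larp1 at 38 °C and 12.34 RPM in larp1 at 20 °C, against 5.84 RPM in WT at 38 °C and 4.58 RPM in WT at 20 °C. Both larp1 libraries were above both WT libraries. The fold of larp1 over WT was 3.16 at 38 °C (log2 1.66 [1.46, 1.87]) and 2.68 at 20 °C (1.42 [1.21, 1.65]), and the call held with every scaling. All 4 of its exon entries were above 0, between 1.34 and 1.76 at 38 °C and between 1.04 and 2.05 at 20 °C. Its neighbour PRX5 (73.2% identical) had at most 0.25 RPM in any library. With heat PRX4 was higher but not called, with log2 folds of 0.59 in larp1 and 0.35 in WT, the larp1 value passing 2-fold with median-of-ratios scaling (1.02). The other call, PRX26 at 20 °C, rested on few reads, with 0.68 RPM in larp1 and 0.29 RPM in WT (log2 1.15 [0.38, 2.28]).

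PRX42 was at 1.18 times the WT level in larp1 at 20 °C and at 0.903 times at 38 °C. Of the 8 root hair peroxidases, 7 were below 0 for larp1 over WT at 20 °C, with every scaling, and none was called. Their median was -0.36, beside 0.04 over all genes. PRX1 was at 5.92 RPM in larp1 and 8.42 RPM in WT (log2 -0.51), PRX35 at 6.06 and 8.49 RPM (-0.49), PRX7 at 10.48 and 13.52 RPM (-0.37) and PRX44 at 12.90 and 16.44 RPM (-0.35). The PRX1 value cannot be told apart from that of PRX2 (-0.53), which is in the lignin list. PRX62 alone was above 0 (0.29). At 38 °C the median was -0.07, beside 0.14 over all genes, with 5 of 8 below 0. The summed root hair markers were 15.3 RPM in larp1 and 17.59 RPM in WT at 20 °C, and 10.3 and 9.36 RPM at 38 °C, and their part in the result was not tested.

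**Figure D5:**
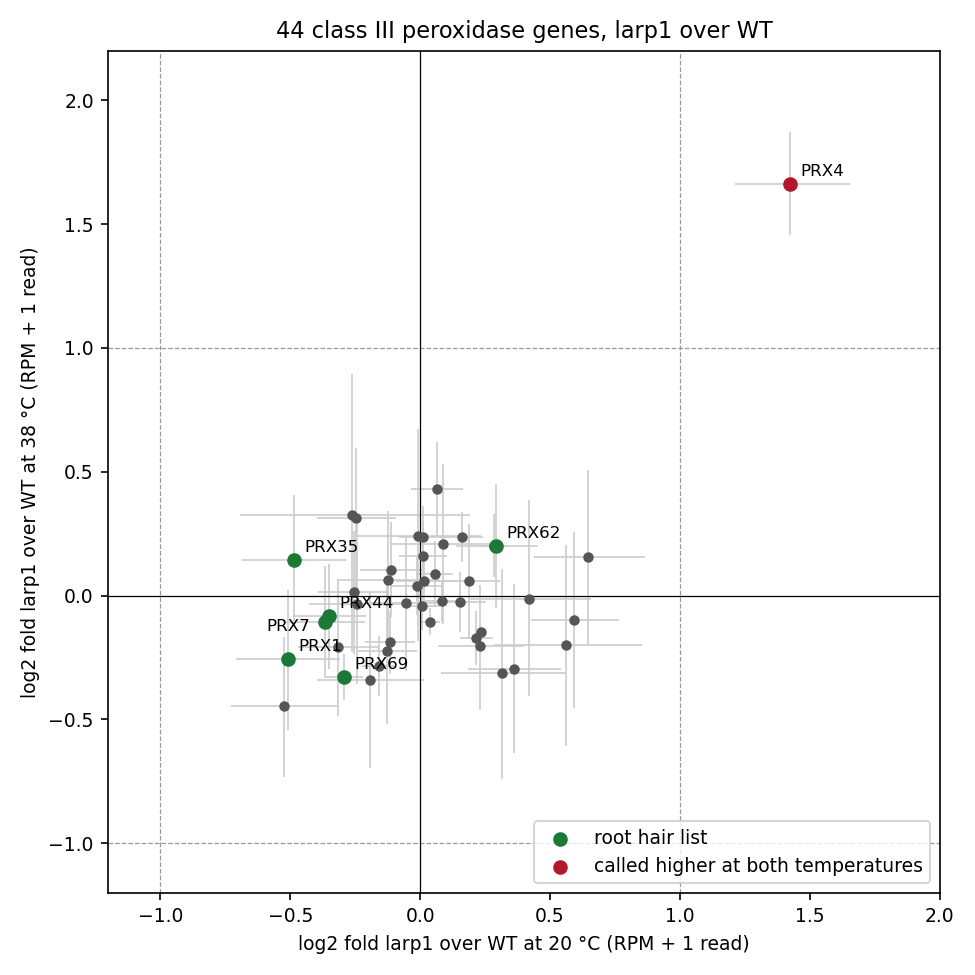
Log2 fold of larp1 over WT at 20 °C (x axis) and 38 °C (y axis) for the 44 class III members compared at both, with 95% counting intervals, dashed lines at 2-fold, root hair members in green and PRX4 in red. PRX4 lies apart at 1.42 and 1.66, and all other points lie within 2-fold on both axes.

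By point value, the heat response differed between larp1 and WT by less than 2-fold for every member compared. Counting intervals could reach past 2-fold, as that of PRX17 below does. Of the 50 members compared in all libraries, none was called for the difference of heat responses (larp1 minus WT), against 2.06% of all 19350 genes on the positive side and 0.641% on the negative. The differences reached from -0.76 (PRX17) to 0.74 (PRX24), with a median of -0.01, beside 0.10 over all genes. PRX17, a peroxidase of lignified tissues, was at 2.23 and 4.75 RPM in larp1 and at 2.56 and 3.21 RPM in WT at 38 °C and 20 °C, a difference of -0.76 [-1.24, -0.28]. PRX42 had a difference of -0.38 [-0.41, -0.36], its log2 fold being -0.73 in larp1 and -0.34 in WT. With TMM scaling its heat fold was -0.33 in larp1 and turned to 0.16 in WT. PRX35 had a difference of 0.63 [0.31, 0.95], with 5.81 and 6.06 RPM in larp1 and 5.26 and 8.49 RPM in WT. These intervals cover counting error only.

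The 250 bases before the annotated start of each gene in TAIR10.1 were searched on both strands for 4 motifs. The W-box core TTGAC stood in 25 of the 61 class III windows (41.0%), beside 44.9% of 27443 windows of protein-coding genes. The heat shock element GAANNTTCNNGAA stood in none of the 61, beside 0.386% of all windows. Its first part alone, GAANNTTC, stood in 3 (PRX7, PRX42 and PRX58), beside 9.55%, and the G-box CACGTG in 2 (PRX26 and PRX65), beside 6.49%. A match describes these letters only. The windows of the members with the lowest and the highest heat fold are shown, PRX15 at chr2:7893710-7893959 on the minus strand with its W-box core (in the reverse direction) in capitals, and PRX51 at chr4:17634446-17634695 on the plus strand, in which none of the 4 was found.
PRX15: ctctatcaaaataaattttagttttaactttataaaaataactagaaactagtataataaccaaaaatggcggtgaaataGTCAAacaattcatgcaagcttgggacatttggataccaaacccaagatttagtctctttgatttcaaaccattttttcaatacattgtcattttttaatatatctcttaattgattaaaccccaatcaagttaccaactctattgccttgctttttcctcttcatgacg
PRX51: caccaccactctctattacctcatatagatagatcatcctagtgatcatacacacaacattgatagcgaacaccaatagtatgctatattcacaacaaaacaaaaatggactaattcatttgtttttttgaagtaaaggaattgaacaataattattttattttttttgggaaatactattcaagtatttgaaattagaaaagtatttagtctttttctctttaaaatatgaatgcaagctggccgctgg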

How the data were processed

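RNA of 4 plantlet pools, 1 library a group, was sequenced as single reads of 100 bases from zinc-fragmented RNA, with rRNA depleted by a duplex-specific nuclease, per the labels' protocols. The nuclease can also lower very abundant transcripts. The submitters' processing notes name BWA 0.5.9 and TAIR10. Not given in the sources used here is how reads were counted and whether by strand.

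The values analysed are a signal for each exon, deposited by the authors under the name RPM per the file headers and rounded to 2 decimals. Columns sum to more than RPM can, since shared exons repeat. The authors' gene lists hold a ratio (fold) of 38 °C over 20 °C, per the file headers. The larp1 20 °C column carries a suffix that is not explained.

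Distinct exon entries were summed per gene, 220 for the members. In each library 99.9988% or more of the nonzero values fell, to within 2-decimal rounding, on whole multiples of 1 step, taken as 1 read, which gave the depth and the read counts behind each value. The rounding is coarse against 1 read, so no count model was run; the planned design had no test, with 1 library a group. Intervals came from an exact conditional binomial distribution of 2 read counts (95%), and from a normal approximation for the difference of heat responses. Intervals and the limits at 0 reads (3 reads of a library) cover counting error only, since reads copied by PCR are not separate molecules. Calling was tried on simulated data with counting error only. That trial does not cover the spread between plants or a shift of most genes, as seen with heat here.

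The members, lists, role groups and roles were chosen with earlier results of these data known. Class III numbers follow the published numbering, from a list made by hand, since the deposited table names only some of them. Named genes were those with at least 100 reads in a library, the 10 lowest and highest called in each heat comparison, 5 and 5 in the others, the 10 most abundant, the role lists, and the members in the authors' lists; other members (PRX50 and PRX51 among them), the groupings by exon entries and level, and the neighbours were chosen after the values were seen. Sequences, exons, overlaps and windows came from RefSeq TAIR10.1, whose coordinates are given; the files hold none. Alternatives were TMM and median-of-ratios scaling, a minimum of 10 reads, no minimum, a 0.5 RPM pseudocount, all exon entries with repeats, and 2 added after seeing the data. Scripts ran in Python 3.11.15 with scipy 1.17.1, numpy 2.4.6 and pandas 2.3.3, and figures with matplotlib 3.10.9.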

Additional observations from a re-analysis of the deposited data

How the results depend on the processing

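No paired analysis was possible because each group has 1 library and the labels carry no replicate numbers, and for the same reason no library could be left out. Scaling changed the counts of members most. In the heat comparison of larp1, 10 members were called lower and 1 higher with TMM scaling and 9 and 2 with median-of-ratios scaling, beside 26 and 0 as reported; in WT both gave 5 lower and 1 higher, beside 19 and 0. The share of all genes called lower fell with it, in WT to 11.3% with TMM and in larp1 to 10%. With a minimum of 10 reads or none, 1 member was called higher with heat in WT, 2 were called higher in larp1 than in WT at 38 °C, and 1 and 2 lower at 20 °C. A pseudocount of 0.5 RPM left 1 member higher in larp1 at 20 °C. The median of the members for larp1 over WT at 20 °C, 0.03, turned to -0.017 with TMM and -0.042 with median-of-ratios scaling. Counting all exon entries, only those with the peroxidase description, or all 72 numbered loci kept every count within 1.5 times or equal at 0. Over all comparisons, 30 calls of single members were lost with TMM, which added 2, 31 with median-of-ratios scaling, which added 3, and 10 with the pseudocount; none of the called values turned its direction under these. Depth limits the 11 members under 50 reads, and the spread between libraries of 1 group is unknown.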
